A study of Mus musculus with 8 samples.

Results

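The growth arrest specific (Gas) genes were first isolated as transcripts that accumulate when mouse 3T3 fibroblasts stop dividing in low serum. The genes examined were Gas1, Gas2, Gas5, Gas6, Gas7, Pmp22 (first described as Gas3) and Axl, the receptor of Gas6. They were taken as every probe set whose only gene symbol in the platform annotation was one of these names, which gave 19 of the 45037 probe sets tested and 7 of 18193 genes. Gas7 had 5 probe sets, Gas5 had 4, Gas1 had 3, Gas2, Gas6 and Axl had 2 each, and Pmp22 had 1. A further probe set shared between Gas5 and the small nucleolar RNA Snord47 was not counted as a member.

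Total RNA of NIH3T3 cells, an established line of mouse embryonic fibroblasts, was hybridised to 8 Affymetrix arrays. The cells had been transduced with mVenus-p27K-, a fluorescent form of the cyclin-dependent kinase inhibitor p27, and with mCherry-hCdt1(30/120), a marker of cells that have not entered S phase. They were cultured without serum and then given 10% serum for 5 h. The 4 G1 arrays hold cells sorted as mVenus-negative and mCherry-positive, and the 4 G0 arrays hold cells sorted as positive for both. Every array therefore carries both reporters, the same starvation and the same serum exposure. The comparison asks which transcripts distinguish mVenus-negative cells from mVenus-positive neighbours. Cells before serum addition and continuously dividing cells were not analysed here. G1 cells that left quiescence after serum and cells that had not arrested without it therefore cannot be told apart. Whether the transduced cells were 1 clone is not stated. The labels do not say whether replicates came from separate cultures, and the p-values then reflect the spread among these arrays, which may be technical.

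Growth arrest specific transcripts have unrelated products. Gas1 is a membrane-anchored protein that blocks entry into S phase when it is overexpressed in 3T3 cells and that also acts as a co-receptor for Hedgehog ligands. Gas6 is a secreted, vitamin K-dependent ligand of the receptor tyrosine kinases Tyro3, Axl and Mertk, and supports survival of arrested fibroblasts. Pmp22 is a small membrane protein best known from peripheral myelin, where its dosage is tightly limited in humans. Gas2 and Gas7 bind the actin cytoskeleton, and Gas7 also carries an F-BAR membrane-bending domain. Gas5 encodes no protein. It hosts small nucleolar RNAs in its introns, and its spliced RNA is translated and destroyed by nonsense-mediated decay while cells grow.

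Each probe set's value was expressed against its own median over the 8 arrays on a log scale, with the base taken as 2. Such values carry differences between arrays and no levels, so they do not show whether a Gas gene was expressed, and levels cannot be compared between genes. Nor could the fibroblast identity of the cells be checked by level. None of 10 fibroblast, 7 leukocyte, 6 epithelial and 5 endothelial marker genes passed the test in limma. Of 4 genes checked for the sort, 2 passed in limma, both higher in G1. Mki67, the gene of the proliferation antigen Ki-67, had a log2 difference (G1 minus G0) of 3.82, which lay between 3.66 and 3.90 with any single array left out. The cyclin gene Ccna2 differed by 2.96. Cdkn1b, the gene of p27, and Cdt1 did not pass (−0.56 and 0.39, limma adjusted p = 0.926 and 0.769). The sort read the fluorescence of reporter proteins and not these transcripts, so their values do not test the sort. The 3 probe sets of Cdt1 ran from −0.42 to 0.39. The labels put replicate 4 of each group in a second labelling batch, but the signal of the poly-A controls (spike-ins, foreign transcripts put into the RNA before labelling) was missing on G1 replicate 4 and G0 replicate 3 (medians −6.40 and −7.12, against −0.14 to 0.62 on the other 6 arrays). Differences are given from the fit with the labelled batch, and errors also from a second fit whose batch follows the missing spike-ins. Differences are equal in both fits because each batch holds the groups equally. The sources used here do not settle whether the titles of G0 replicates 3 and 4 were exchanged. If they were, the batches of the labels would be those of the spike-ins, and a value given for a labelled batch would mix batches. The group of each array would stay the same.

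Promoter windows of Gas1, Pmp22 and Gas5, none of which passed the test, are shown first. They were taken from RefSeq on GRCm38.p6, where windows were available for 6 members with 11 annotated starts. Each window runs from 250 bases before a start to 50 after it. It was searched on both strands for the CArG box (by its name), the CCAAT box, the TATA box TATAAA, the cyclic AMP response element TGACGTCA, the AP-1 site TGACTCA, the FoxO site GTAAACA, the cell cycle element TTTGAA and the E2F site GGCGGGAA, none of which overlapped another in these windows. Matches are in capitals and are a description of the letters only. Gas1 is shown whole because it held the lowest p-value among the members. The window lies at chr13:60177486-60177785 on the minus strand. Its only match was CCAAT, 68 bases before the start, and that motif was in 37.4% of all 32851 windows.
Gas1: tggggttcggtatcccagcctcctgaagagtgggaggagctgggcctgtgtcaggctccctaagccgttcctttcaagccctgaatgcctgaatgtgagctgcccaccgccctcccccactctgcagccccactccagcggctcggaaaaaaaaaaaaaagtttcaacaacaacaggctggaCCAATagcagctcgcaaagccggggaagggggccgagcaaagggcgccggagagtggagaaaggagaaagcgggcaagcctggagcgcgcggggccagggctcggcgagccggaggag

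Pmp22 is shown because its difference had the opposite sign to that of Gas1. It has 4 annotated starts, all on the plus strand, and the deposited values are not assigned to any of them. The last 100 bases of each window are printed, from 50 bases before the start to 50 after it, at chr11:63128932-63129031, chr11:63131407-63131506, chr11:63132519-63132618 and chr11:63132753-63132852. Start 1 holds CCAAT, read on the other strand as ATTGG, 47 bases before the start. The second start has the same motif 219 bases upstream, outside the stretch shown. The windows of starts 3 and 4 held no match.
Pmp22 start 1: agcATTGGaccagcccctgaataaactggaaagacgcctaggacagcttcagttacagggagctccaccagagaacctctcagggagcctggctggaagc
Pmp22 start 2: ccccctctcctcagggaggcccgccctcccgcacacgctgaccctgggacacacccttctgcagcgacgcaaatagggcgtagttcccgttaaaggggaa
Pmp22 start 3: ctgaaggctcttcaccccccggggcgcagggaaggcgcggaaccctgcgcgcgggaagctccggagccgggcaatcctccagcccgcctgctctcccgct
Pmp22 start 4: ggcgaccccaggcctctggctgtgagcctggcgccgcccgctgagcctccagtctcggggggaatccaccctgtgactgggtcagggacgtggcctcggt

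Gas5 is shown at its second annotated start, chr1:161035116-161035215 on the plus strand, as a member whose differences ran from −0.27 to 0.07. TGACGTCA lies 46 bases before this start, and 1.79% of all windows held it. The window of Gas5 start 1 held no match and is not printed. The deposited values are not assigned to either start.
Gas5 start 2: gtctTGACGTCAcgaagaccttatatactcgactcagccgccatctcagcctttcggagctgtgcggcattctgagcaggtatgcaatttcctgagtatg

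No Gas gene probe set differed between G1 and G0 cells past the threshold. In limma, 0 of 19 had an adjusted p under 0.05, against 0.4% of all 45037 probe sets (180). The adjusted p of the 19 lay between 0.641 and 0.992. At an unadjusted p under 0.05 there were 2, both lower in G1, which is 10.5% of the members, against 7.3% of all probe sets in either direction and 3.59% lower in G1. With the spike-in batch in the fit, 0 of 19 passed again (smallest adjusted p = 0.166), where 0.788% of all probe sets did, and 4 were under an unadjusted p of 0.05 (21.1%, against 11.3% of all). On the 6 arrays with spike-ins 0 passed (0.0977% of all) and 4 were under that p (8.16% of all).

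The differences of the 19 probe sets were mostly below 0 and ran from −1.33 to 0.73. A value below 0 was found for 14 of them (73.7%, against 55.0% of all probe sets), and the median was −0.27, against −0.06 over all probe sets. These counts weigh genes by their probe sets, of which Gas7 had 5 and Gas1 had 3. With the probe sets of each gene averaged, the median over the 7 genes was −0.08. Over the 19 probe sets the median was −0.24 within the arrays with spike-ins and −0.05 between those without. It was −0.31 within labelled batch 1 and 0.05 within labelled batch 2. In 0 of 19 did the 4 G1 values lie wholly to 1 side of the 4 G0 values, as they did in 6.06% of all probe sets. After the spike-in pattern was seen, separation was looked for within both spike-in batches at once. The batch without spike-ins holds 1 array per group, so there it is only the sign of 1 difference. Separation in both batches held for 4 members (21.1%), against 11.9% of all probe sets. These were 2 probe sets of Gas1 and 1 of Gas7, lower in G1, and that of Pmp22, higher in G1. The 2 of Gas1 were at most 0.30 apart on any array, so they are not separate results. In bulk RNA, fewer cells with a transcript and less of it per cell cannot be told apart.

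**Figure D1:**
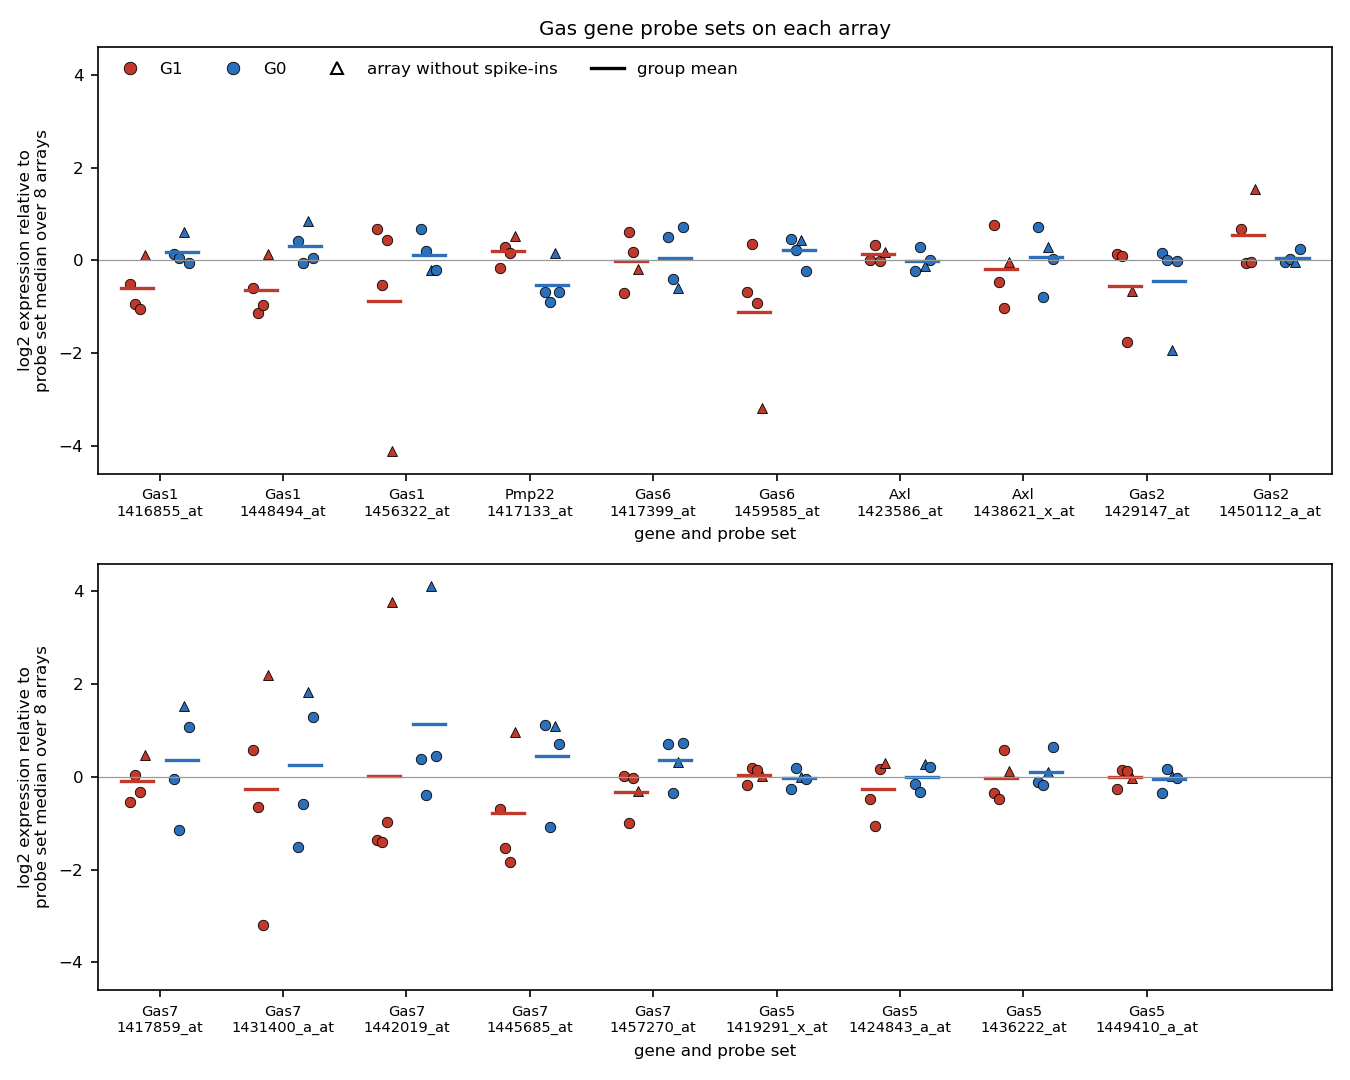
Each point is the log2 expression of a Gas gene probe set on 1 array, relative to that probe set's median over 8 arrays, with G1 in red and G0 in blue, triangles for the 2 arrays without spike-ins and bars for group means. Gas5 1419291_x_at and Axl 1423586_at stayed close to 0 on every array, while Gas7 1442019_at reached 3.77 and 4.11 on the triangles.

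Gas1 had the members' smallest p-value, and the pair of its probe sets that tracked each other lay lower in G1 without passing the test. Probe set 1448494_at read −0.60, −1.13, −0.97 and 0.14 on G1 replicates 1 to 4, against 0.42, −0.06, 0.85 and 0.06 on G0 replicates 1 to 4. The first 3 G1 arrays were below every G0 array, and G1 replicate 4, an array without spike-ins, was among the G0 values. The means were −0.64 ± 0.56 in G1 and 0.32 ± 0.41 in G0 (SD, n = 4 each), a log2 difference of −0.96, equal to 1.94-fold lower in G1 (SE 0.37, 95% confidence interval −1.81 to −0.10, limma adjusted p = 0.641). With the spike-in batch the interval narrowed to −1.48 to −0.43 (SE 0.22, adjusted p = 0.166). Probe set 1416855_at read −0.50, −0.95, −1.04 and 0.11 in G1, against 0.13, 0.06, 0.62 and −0.06 in G0, a difference of −0.78 (SE 0.34, adjusted p = 0.702). These probe sets differed from each other by at most 0.30 on any array.

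Within the spike-in batches 1448494_at differed by −1.04 on the 6 arrays and by −0.71 between the 2 arrays without spike-ins, and 1416855_at by −0.87 and −0.51. Within the labelled batches the values were −1.30 and 0.08 for 1448494_at and −1.10 and 0.17 for 1416855_at, so the sign turned in labelled batch 2 as titled, whose 2 arrays differ in their spike-ins. The third Gas1 probe set, 1456322_at, did not follow the others. It read 0.67, −0.52, 0.45 and −4.10 in G1, against 0.68, 0.20, −0.21 and −0.20 in G0. Its difference of −0.99 (SE 0.75, adjusted p = 0.868) rested on G1 replicate 4 and was −0.02 without that array. The mean over the 3 probe sets differed by −0.91 (SE 0.28, limma adjusted p = 0.382 over genes).

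Other receptors and mediators of Hedgehog signalling, and the related receptors of glial cell line-derived neurotrophic factor, gave no call either. Of 19 measured genes including Gas1, 0 passed in limma, and the median difference was −0.05. Those under an unadjusted p of 0.05, named after their values were seen, were the transcription factor gene Gli2 at 0.86 (SE 0.25, adjusted p = 0.432) and Kif7, a kinesin of the primary cilium, at −0.58 (SE 0.21, adjusted p = 0.611). The largest differences were those of Dhh, the ligand Desert hedgehog, at 1.53 (SE 0.74, adjusted p = 0.749), and the Hedgehog co-receptor Cdon at 1.20 (SE 0.75, adjusted p = 0.823). Cdon read 0.37, −0.37, 0.94 and 1.77 in G1, against −1.25, −1.17, 1.52 and −1.20 in G0, with the highest value of each group on the array without spike-ins. Its difference was 0.61 without G1 replicate 4 and 1.95 without G0 replicate 3. With the spike-in batch its SE was 0.35 (limma unadjusted p = 0.0109, adjusted p = 0.269). The other Cdon probe set differed by −0.81 and had the lower adjusted p of the pair with the labelled batch (0.346). The gene therefore has no single direction on the array. For Dhh the probe sets also disagreed, the other being at −0.39, and without G1 replicate 2 the value of 1.53 was 0.86.

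Pmp22 was the member with the clearest difference in the opposite direction, higher in G1 without passing the test. Its probe set 1417133_at read −0.16, 0.29, 0.16 and 0.52 on G1 replicates 1 to 4, against −0.69, −0.90, 0.17 and −0.68 on G0 replicates 1 to 4. All G0 arrays but replicate 3, the G0 array without spike-ins, lay below all G1 arrays. The means were 0.20 ± 0.29 in G1 and −0.53 ± 0.47 in G0 (SD, n = 4 each), a difference of 0.73 or 1.66-fold (SE 0.33, 95% confidence interval −0.04 to 1.50, limma adjusted p = 0.712). With the spike-in batch the interval was 0.24 to 1.22 (adjusted p = 0.261). The difference was 0.86 and 0.35 within the spike-in batches and 0.57 and 1.20 within the labelled batches.

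The epithelial membrane proteins, relatives of Pmp22 with the same 4-pass fold, gave values close to 0 on the probe set that stands for each. Emp1 differed by 0.05 (95% confidence interval −0.67 to 0.77), Emp2 by −0.02 (−0.77 to 0.72) and Emp3 by −0.01 (−0.48 to 0.45), with adjusted p of 0.992, 0.997 and 0.998 in limma. At an unadjusted p under 0.05 there were 0 of the 4 family members with the labelled batch and 1, Pmp22, with the spike-in batch. These 3 intervals leave out a 2-fold difference in either direction for those probe sets. The second Emp1 probe set differed by 0.62, and the 3 of Emp2 ran from −0.05 to 0.08 (smallest adjusted p 0.925 for Emp1 and 0.981 for Emp2). The difference between Pmp22 and these genes was not tested.

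**Figure D2:**
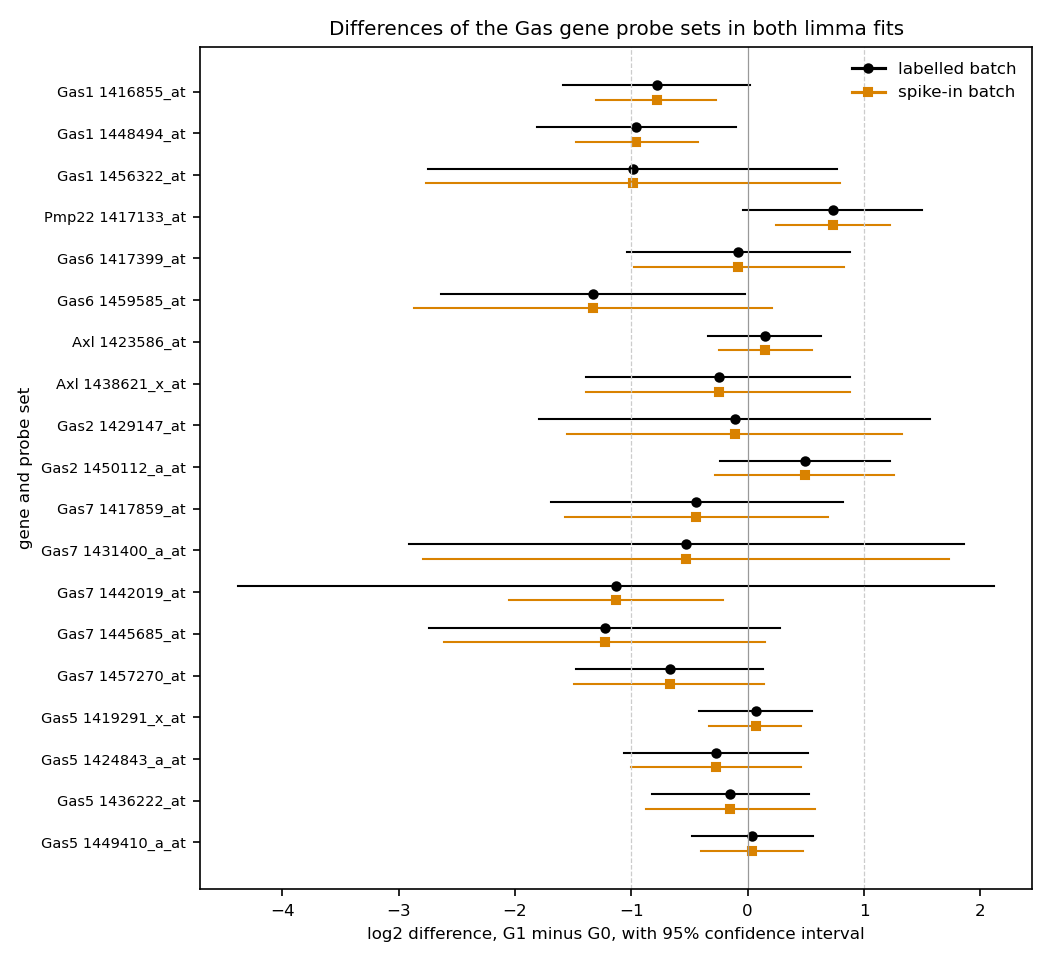
The plot gives the log2 difference, G1 minus G0, of each Gas gene probe set with its 95% confidence interval, from the limma fit with the labelled batch (black) and with the spike-in batch (orange), and dashed lines at a 2-fold difference. Orange intervals that leave out 0 are those of Gas1 1416855_at and 1448494_at, Pmp22 1417133_at and Gas7 1442019_at, none with an adjusted p under 0.05.

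Gas6 and its receptor Axl each had 1 probe set with a difference close to 0. Gas6 1417399_at read −0.70, 0.61, 0.18 and −0.18 in G1, against 0.50, −0.41, −0.59 and 0.73 in G0, so the groups overlapped fully (difference −0.08, SE 0.41, limma adjusted p = 0.990). The sign of that value turned to 0.20 within labelled batch 1. The second Gas6 probe set, 1459585_at, had the largest absolute difference of all members, −1.33 (SE 0.56, limma adjusted p = 0.680). It read −0.69, 0.36, −0.92 and −3.18 in G1, against 0.46, 0.22, 0.43 and −0.22 in G0. G1 replicate 4 stood far below the rest, and without it the difference was −0.78. On the 6 arrays with spike-ins it was −0.57. The probe sets of Gas6 were apart by up to 2.99 on an array.

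Axl 1423586_at was among the steadiest members. It read 0.00, 0.33, −0.01 and 0.19 in G1, against −0.22, 0.28, −0.13 and 0.00 in G0, a difference of 0.15 (95% confidence interval −0.34 to 0.63, limma adjusted p = 0.952). The groups overlapped, and the interval leaves out a 2-fold difference. Axl 1438621_x_at, whose suffix marks possible cross-hybridisation, scattered from −1.03 to 0.77 in G1 and from −0.79 to 0.73 in G0 (difference −0.25, SE 0.49, adjusted p = 0.972).

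Of 8 genes of the Gas6 pathway, 0 passed in limma, 1 was lower at an unadjusted p under 0.05, and the median difference was −0.08. That gene was the receptor Mertk, at −1.64 (SE 0.49, adjusted p = 0.459), which read −0.69, −1.52, 0.69 and −2.59 in G1, against 1.33, 0.80, 1.49 and −1.17 in G0. The groups overlapped, with replicate 4 lowest in each. With the spike-in batch its SE was 0.87 and its unadjusted p 0.104 (limma adjusted p = 0.551). Its difference was −0.82 (SE 0.83) when the 2 arrays lacking spike-ins were left out. The third receptor, Tyro3, differed by 0.41 (SE 0.33, adjusted p = 0.876), and Pros1 (protein S), the other vitamin K-dependent ligand, by −0.13 (SE 0.25). Of the enzymes that make Gas6 active through vitamin K, the carboxylase Ggcx differed by −0.17 (SE 0.34) on the probe set that stands for it and by −1.01 on its other one (smallest adjusted p 0.863). The reductase Vkorc1 differed by 0.08 (SE 0.18), and its relative Vkorc1l1 by −0.08 (SE 0.20). By likeness of profile, the probe sets nearest to Gas6 1459585_at over the 8 arrays were those of Masp1 and Gm38440, at root mean square distances of 0.38 and 0.39 log2 units. Chosen after values were seen, the nearest to Gas1 1448494_at were Insig2 and 4930447F24Rik (0.15 each), and to Pmp22 Top3a (0.15) and Tmem43 (0.16).

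The Gas2 probe sets disagreed in sign. Gas2 1429147_at read 0.14, 0.09, −1.76 and −0.67 in G1, against 0.17, 0.01, −1.93 and −0.01 in G0 (difference −0.11, SE 0.72, limma adjusted p = 0.992). Replicate 3 was the lowest array of each group, and the sign turned to 0.08 within labelled batch 1. Gas2 1450112_a_at read 0.68, −0.05, −0.03 and 1.55 in G1, against −0.03, 0.03, −0.04 and 0.24 in G0 (0.49, SE 0.31, adjusted p = 0.824). Its G0 arrays lay within a narrow range, and 2 of the 4 G1 arrays lay above it. On the 6 arrays with spike-ins the difference was 0.12, and without G1 replicate 4 it was 0.22.

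Among 6 measured genes that share the Gas2 domain, 0 passed in limma and 1 was lower at an unadjusted p under 0.05. This was Gas2l2, at −1.42 (SE 0.60, adjusted p = 0.681). Gas2l3, which links actin and microtubules in dividing cells, differed by 0.52 (SE 0.97, adjusted p = 0.970) on the probe set that stands for it. Its 3 probe sets ranged from 0.52 to 1.51 (smallest adjusted p = 0.117). Gas2l1 differed by 0.19 (SE 0.50), and the giant cytoskeletal linkers Macf1 and Dst by 0.16 (SE 0.78) and −0.11 (SE 0.58). Over all their probe sets, the 3 of Gas2l1 ran from −0.83 to 0.19, the 3 of Macf1 from −0.13 to 0.16 and the 4 of Dst from −0.97 to −0.10 (smallest adjusted p 0.953, 0.960 and 0.860). The signs of Gas2l1 and Dst turned on the arrays of labelled batch 1 (−0.32 and 0.46), as did that of Gas2l3 (−0.42).

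All 5 Gas7 probe sets had a difference below 0, from −1.23 to −0.44, and none passed in limma (adjusted p from 0.762 to 0.972). Gas7 1445685_at read −0.70, −1.54, −1.83 and 0.96 in G1, against 1.11, −1.09, 1.10 and 0.70 in G0 (−1.23, SE 0.64, adjusted p = 0.770). Gas7 1457270_at had the narrowest interval of the 5, −1.48 to 0.13 around −0.67 (adjusted p = 0.762). Both overlapped between groups, and so did the other 3. Gas7 1431400_a_at ranged from −3.19 to 2.19 in G1 and from −1.50 to 1.84 in G0. These probe sets share a gene, so their common sign is not 5 separate results. The mean over them differed by −0.80 (SE 0.59, adjusted p = 0.777 over genes). Without G0 replicate 3 the differences of 1417859_at, 1431400_a_at and 1442019_at had the opposite sign, at 0.05, 0.24 and 0.10.

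Gas7 1442019_at was highest where the spike-ins were missing. It read −1.36, −1.40, −0.97 and 3.77 in G1, against 0.38, −0.38, 4.11 and 0.45 in G0, so the array without spike-ins was highest in each group by more than 3 log2 units. In the limma fit with the spike-in batch, arrays without spike-ins were 4.49 log2 units above those with them (SE 0.45, adjusted p = 0.0174). It was the only member with an adjusted p under 0.05 for that term, which 4.75% of all probe sets had. With this term in the fit the difference between G1 and G0 was −1.13 (SE 0.39, adjusted p = 0.353), against an SE of 1.39 with the labelled batch. The part of labelling in the other members was not tested beyond these values. The Gas1 probe sets 1448494_at and 1416855_at were 0.87 and 0.76 higher on arrays without spike-ins (adjusted p = 0.106 and 0.143), and Pmp22 was 0.67 higher (adjusted p = 0.162).

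**Figure D3:**
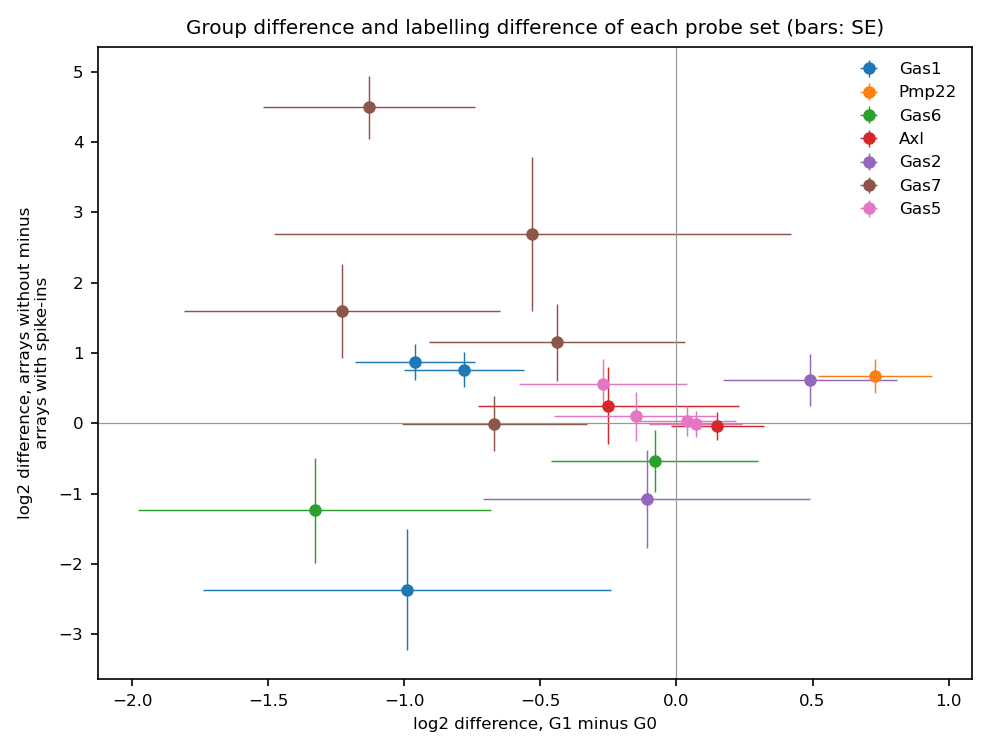
For each Gas gene probe set the horizontal axis gives the log2 difference, G1 minus G0, and the vertical axis the log2 difference of the 2 arrays without spike-ins minus the 6 with them, both from the limma fit with the spike-in batch, with bars of 1 SE. Gas7 1442019_at lies highest at 4.49, and Gas5 1419291_x_at and Axl 1423586_at lie near the origin.

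Of 17 measured F-BAR family genes, Gas7 included, 0 passed in limma, and the median was −0.29. At an unadjusted p under 0.05 there were 3 with the spike-in batch, all lower in G1, and 1 with the labelled batch. That 1 was Srgap3, a regulator of Rac in neurons, at −0.92 (SE 0.34, adjusted p = 0.621). It read −0.06, −1.05, −0.57 and −0.28 in G1, against 1.14, 0.19, 0.35 and 0.06 in G0, so all G1 values lay below all G0 values. Its other probe set differed by −0.59. The endocytic protein Fcho1 also differed by −0.92 (SE 0.81, adjusted p = 0.892), with its 3 probe sets between −0.92 and 1.21. Its value was −0.11 without G0 replicate 2, −1.49 without G0 replicate 3 and −1.88 on the 6 arrays with spike-ins.

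Gas5 differences ran from −0.27 to 0.07. Probe set 1419291_x_at read −0.18, 0.19, 0.14 and 0.01 in G1, against −0.25, 0.19, −0.01 and −0.05 in G0 (difference 0.07, 95% confidence interval −0.42 to 0.55, limma adjusted p = 0.983). The suffix of 1419291_x_at marks possible cross-hybridisation. Probe set 1449410_a_at read within 0.10 of that probe set on every array and differed by 0.04 (−0.48 to 0.56). On both, replicate 1 was the lowest array of each group, and the groups overlapped fully. Probe sets 1436222_at and 1424843_a_at differed by −0.15 (−0.82 to 0.53) and −0.27 (−1.06 to 0.52). Values of 1424843_a_at were −0.48, −1.06, 0.16 and 0.30 in G1, against −0.16, −0.32, 0.27 and 0.21 in G0. This probe set was up to 1.25 apart from 1419291_x_at on an array. A 2-fold difference in either direction lay outside the interval for 3 of the 4 Gas5 probe sets and for Axl 1423586_at, that is 4 of the 19 members, against 29.4% of all probe sets.

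Other hosts of small nucleolar RNAs gave no call. Of 11 measured genes, Gas5 included, 0 passed in limma, and the median was −0.15. The single one under an unadjusted p of 0.05, Snhg11, differed by −1.95 (SE 0.75, adjusted p = 0.642). It read −2.07, 0.01, −2.42 and −2.02 in G1, against −0.01, 0.39, 0.53 and 0.40 in G0, with G1 replicate 2 between the G0 values, and its other probe set differed by −0.78. Snhg4 differed by −0.39 (SE 0.34, adjusted p = 0.892). Among 10 measured factors of nonsense-mediated decay, 0 passed in limma, 0 were under an unadjusted p of 0.05, and the median was 0.07. The exon junction proteins Eif4a3 and Rbm8a were the farthest from 0, at 0.32 each (SE 0.42 and 0.19, adjusted p = 0.946 and 0.817), and the value of Eif4a3 was −0.10 on the 6 arrays with spike-ins.

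Other genes known from quiescent fibroblasts did not pass. Of 6 measured, 0 were called in limma with either batch. At an unadjusted p under 0.05 there were 0 with the labelled batch and 2 with the spike-in batch, both lower in G1, and the median was −0.34. The matrix proteoglycan gene Dcn (decorin) differed by −0.74 (SE 0.69, adjusted p = 0.902), and Qsox1, a sulfhydryl oxidase first named quiescin, by −0.50 (SE 0.33, adjusted p = 0.830). These were the 2 under an unadjusted p of 0.05 with the spike-in batch (SE 0.21 for Dcn and 0.19 for Qsox1, adjusted p = 0.265 and 0.399). Dcn was at −0.17 without G1 replicate 4 and at −1.45 without G0 replicate 3. Over all their probe sets, the 2 of Dcn differed by −1.13 and −0.74, and the 4 of Qsox1 ran from −0.91 to −0.06.

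**Figure D4:**
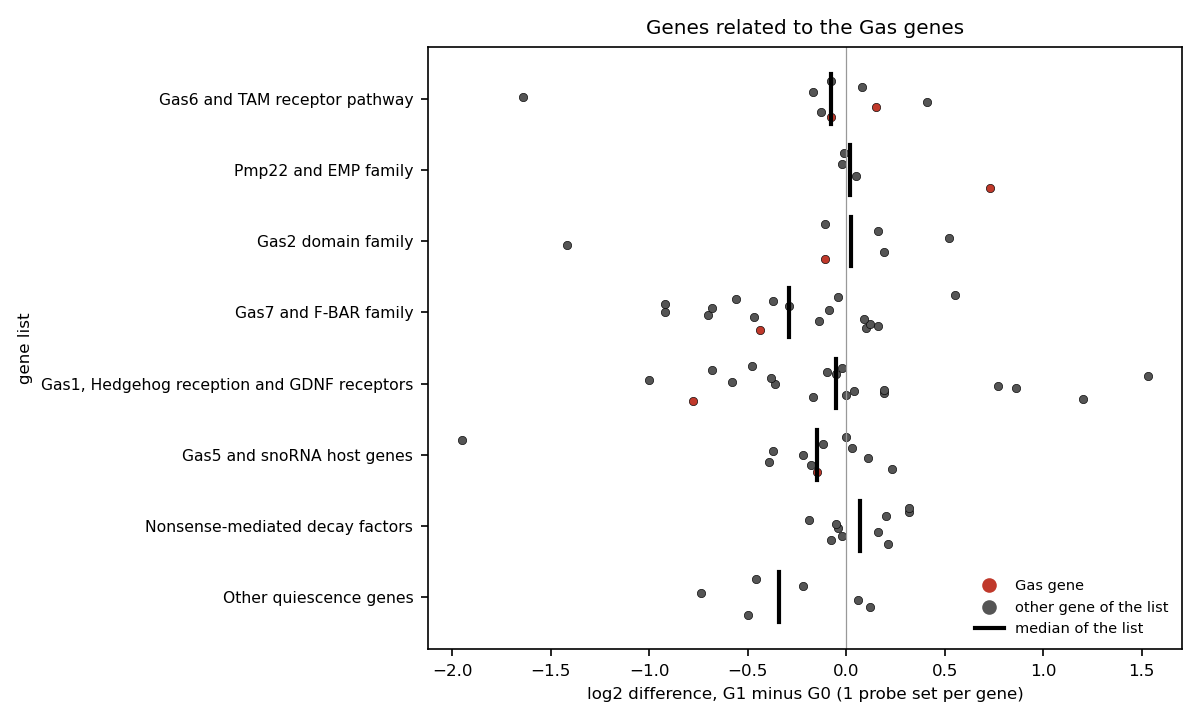
Each point is the log2 difference, G1 minus G0, of 1 gene on the probe set that stands for it, by gene list, with Gas genes in red and a bar at the list's median. Medians lie between −0.34 (other quiescence genes) and 0.07 (nonsense-mediated decay factors), and 0 of the genes shown had an adjusted p under 0.05.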

How the data were processed

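RNA of 4 G1 and 4 G0 samples was measured on arrays. The deposited values are log2 expression (base taken as 2, since it is not stated), for which the submitters' processing notes name MAS5. The values themselves show that every probe set had been centred on its median (largest absolute median 5e-07), so no filter on level could be used. The sources used here do not say how logs were taken or values centred. Of 45101 probe sets, 64 controls were left out.

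Differences, G1 minus G0, were tested over all 45037 probe sets with limma 3.58.1 in R 4.3.3 (lmFit, eBayes with trend, two-sided, Benjamini-Hochberg, threshold 0.05) on all arrays, with the labelled batch as covariate (kit revision 3 for replicate 4 of each group, revision 8 for the rest). The number of arrays sets the precision. Alternatives changed the batch, the arrays, the scaling, the error model and the probe sets. Members and lists were chosen with earlier results of these data known. All member probe sets are named. In the related lists, a gene is represented by 1 probe set (suffix order _at, _a_at, _s_at, _x_at, then lowest number). Genes named are those past the threshold, the 2 with the largest absolute difference in a list, and all genes of the Gas6, Pmp22 and Gas2 lists. The 4 genes checked for the sort are also named, and Gli2 and Kif7 were added after their values were seen. Likeness names the 2 nearest genes to the member with the largest difference. Symbols were updated through Entrez identifiers for 34741 of 34945 probe sets with 1 symbol.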

Additional observations from a re-analysis of the deposited data

Results flagged for a closer look

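Among 38 groups of 4 values (19 probe sets in G1 and in G0), 2 held an array far from its group by Dixon's test. Chance alone flags about 1 in 20 groups. For Gas7 1442019_at, G1 replicate 4 read 3.77, while the other G1 arrays lay between −1.40 and −0.97, a gap of 0.917 of the range. This array had no spike-in signal, and the G0 array without it, replicate 3, read 4.11 on the same probe set. For Gas2 1429147_at, G0 replicate 3 read −1.93, while the other G0 arrays lay between −0.01 and 0.17, a gap of 0.918 of the range. On that probe set G1 replicate 4 read −0.67, and the lowest G1 value, −1.76, was that of replicate 3, an array with spike-ins.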

How the results depend on the processing

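Under all 19 alternatives 0 Gas gene probe sets passed in limma (smallest adjusted p 0.166, with the spike-in batch). The probe sets of Gas1 and Pmp22, Gas5 1424843_a_at and 1436222_at, Gas2 1450112_a_at, Axl 1423586_at, Gas6 1459585_at and Gas7 1445685_at and 1457270_at kept their sign in each alternative that tested probe sets. The count over all probe sets was 355 with the spike-in batch, 44 on arrays with spike-ins, 0 within labelling batch 1 (3575 at an unadjusted p under 0.05), 0 with the replicate block (3219 at that p) and 107 genes with probe sets averaged. Leaving out arrays gave 0 to 122, and in 6 of 8 such fits 0 (2798 to 3682 at an unadjusted p under 0.05). These were the fits without G1 replicate 1, 2, 3 or 4 or G0 replicate 2 or 4. Members at an unadjusted p under 0.05 numbered 4 with the spike-in batch and 4 on arrays with spike-ins, 1 with the replicate block, 1 of 7 genes averaged, and 0 to 3 with an array left out. The median difference of the member probe sets lay between −0.55 and −0.13 with an array left out, farthest without G0 replicate 2. It was −0.08 over the 7 genes averaged.

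Signs turned for these values, none called. With an array left out the ranges were −0.33 to 0.20 (Gas6 1417399_at), −0.60 to 0.04 (Axl 1438621_x_at), −0.62 to 0.30 (Gas2 1429147_at), −0.89 to 0.05, −1.03 to 0.30 and −2.61 to 0.10 (Gas7 1417859_at, 1431400_a_at and 1442019_at), −0.01 to 0.15 and −0.07 to 0.13 (Gas5 1419291_x_at and 1449410_a_at), −0.29 to 0.01 (Pros1), −0.35 to 0.11 (Ggcx), −0.10 to 0.29 (Emp1), −0.24 to 0.23 (Emp2), −0.10 to 0.05 (Emp3), −0.32 to 0.49 (Gas2l1), −0.42 to 1.33 (Gas2l3), −0.57 to 0.84 (Macf1), −0.51 to 0.46 (Dst) and −0.08 to 0.59 (Eif4a3). Within labelling batch 1 they were 0.20 (Gas6 1417399_at), 0.08 (Gas2 1429147_at), 0.01 (Pros1), −0.32 (Gas2l1), −0.42 (Gas2l3), 0.46 (Dst) and −0.08 (Eif4a3). On arrays with spike-ins they were 0.04 (Ggcx and Vkorc1l1), 0.02 (Emp2 and Emp3), −0.24 (Gas2l1) and −0.10 (Eif4a3). Emp2 was 0.04 with quantile normalization or array weights, Emp3 0.02 with arrays centred on their medians and 0.03 with quantile normalization, and Gas2l1 −0.10 with array weights. The cause was not tested. Mki67 and Ccna2 each passed in limma with 8 arrays (adjusted p = 0.00889 for both). Neither passed in the 6 fits above, within labelling batch 1 (adjusted p = 0.0704 for both) or with the replicate block (adjusted p = 0.0748 for both). Same-numbered G1 and G0 arrays share only a number in the labels, and they were not taken as pairs. The correlations of their deviations from the group means were 0.07, 0.11, −0.14 and −0.14 for replicates 1 to 4 as titled. G1 replicates 1 and 2 correlated best with the G0 arrays of the same number. G1 replicate 4 correlated best with G0 replicate 3 (0.31), and G1 replicate 3 with G0 replicate 4 (0.10). If the titles of G0 replicates 3 and 4 were exchanged, every best match would be a same-numbered array. The 0.31 is between the 2 arrays without spike-ins, so these matches do not test an exchange separately. The replicate block used the titled numbers, and pairing in the exchanged order was not tested. Leaving out replicate 4 of either group gives the value within labelled batch 1. A transcript at low signal cannot be recognised in centred values.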
